A study of Mus musculus with 11 samples.

Results

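The genes described here are 8 zinc finger genes on mouse chromosome 4, Zfp987, Zfp600, Zfp992, Zfp981, Zfp993, Zfp978, Zfp982 and Zfp985, out of 21887 protein-coding genes. They lie within chr4:145900001-147800000 (mm10), a window of 1.9 Mb called the zinc finger window here. They were chosen by measured values of these same libraries, namely stretches with peaks in every Foxc1 mutant and no control library, so what follows is a description and no test was made of that contrast. All 534 peaks that 6 peak lists hold in the window were used.

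The lists come from CUT&RUN, where a nuclease tethered to an antibody releases the DNA that a protein occupies. The protein was retinoic acid receptor alpha (RARα), a nuclear receptor that answers to retinoic acid, and it was recognised through a Myc tag. The 3 Foxc1 mutant and 3 control Myc-tag libraries were made from cortical cells of E14 mouse embryos after a magnetic selection for Prom1, which neural progenitors carry on their surface. Foxc1 is a transcription factor on which formation of the meninges depends, and the series title links retinoic acid from the meninges to Notch and Sox2. The sources used here give neither the Foxc1 allele nor how and in which cells the tagged receptor was introduced, and nothing says that replicates were separate embryos. The antibody target is the same in both genotypes, and another 5 libraries with an isotype antibody were not analysed here. Peak lists hold no expression values, so the labelled cell type could not be checked against its markers.

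Most mouse genes of this kind encode KRAB zinc finger proteins, which read DNA with arrays of zinc-binding fingers and recruit the corepressor TRIM28 to silence chromatin, above all at transposable elements. Such genes multiply by tandem duplication, and a cluster therefore holds many close copies, intact and decayed. Of the 8 genes, Zfp982 has been described in mouse embryonic stem cells as a regulator of stem cell genes, and the others are named here from their zinc fingers alone.

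The likeness of the members can be read in the DNA before their start sites. RefSeq (GRCm38.p6, the assembly behind mm10) gave 9 promoter entries of 300 bases for 6 of the 8 members, and the table held no entry for Zfp992 and Zfp978. Entries of 5 members, Zfp987, Zfp600, Zfp981, Zfp982 and Zfp985, were alike: over whole alignments their 10 pairs were 71.1% to 89.1% identical, with a median of 80.7%. The other 26 pairs of entries were 44.8% to 52.4% identical, with a median of 48.5%. The 250 bases before the 5 starts are shown because they let the likeness of these copies be read. All run on the plus strand, at chr4:146097062-146097311 for Zfp987, chr4:146156577-146156826 for Zfp600, chr4:146514670-146514919 for Zfp981, chr4:147492167-147492416 for Zfp982 and chr4:147553027-147553276 for Zfp985. Capitals mark the longest run found in all of them, 15 bases that begin between 164 and 135 bases before the start.
Zfp987: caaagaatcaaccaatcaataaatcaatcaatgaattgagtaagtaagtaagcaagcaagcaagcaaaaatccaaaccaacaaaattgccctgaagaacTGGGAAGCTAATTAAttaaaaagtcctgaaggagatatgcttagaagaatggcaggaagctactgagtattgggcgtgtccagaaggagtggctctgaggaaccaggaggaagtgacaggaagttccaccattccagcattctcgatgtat
Zfp600: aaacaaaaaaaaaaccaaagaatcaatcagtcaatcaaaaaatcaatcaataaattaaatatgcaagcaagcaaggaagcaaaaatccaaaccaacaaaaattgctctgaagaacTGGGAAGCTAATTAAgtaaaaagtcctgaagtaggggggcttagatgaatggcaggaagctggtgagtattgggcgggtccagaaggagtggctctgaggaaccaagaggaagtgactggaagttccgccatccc
Zfp981: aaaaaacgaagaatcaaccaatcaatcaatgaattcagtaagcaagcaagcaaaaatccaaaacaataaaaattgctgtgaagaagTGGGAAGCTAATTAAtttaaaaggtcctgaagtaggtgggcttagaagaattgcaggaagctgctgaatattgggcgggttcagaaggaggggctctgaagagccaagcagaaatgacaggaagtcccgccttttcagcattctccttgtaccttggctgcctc
Zfp982: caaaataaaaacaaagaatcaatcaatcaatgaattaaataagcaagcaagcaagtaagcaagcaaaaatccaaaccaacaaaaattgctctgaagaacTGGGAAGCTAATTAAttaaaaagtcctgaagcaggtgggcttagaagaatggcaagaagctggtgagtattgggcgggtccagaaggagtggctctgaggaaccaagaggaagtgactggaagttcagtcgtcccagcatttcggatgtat
Zfp985: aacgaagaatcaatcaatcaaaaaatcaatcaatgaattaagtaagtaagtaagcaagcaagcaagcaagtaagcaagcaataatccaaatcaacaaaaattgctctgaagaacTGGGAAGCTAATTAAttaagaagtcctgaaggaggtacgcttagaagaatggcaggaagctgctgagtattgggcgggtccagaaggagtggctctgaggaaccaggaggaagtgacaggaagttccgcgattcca

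The likeness reached past the 5 genes. The promoter of Rex2, a zinc finger gene of embryonic stem cells in the same window, was 99.3% identical to that of Zfp600, and those of Zfp979, Zfp988 and Zfp534 were 94.8%, 77.0% and 72.2% identical to it. Runs of 30 bases found also in the promoter of another gene occurred in 7 of the 9 member entries, against 7252 of all 32851 entries, or 22.1%. They made up 94.5% of the positions in the Zfp600 entry shown, 63.8% in Zfp987, 41.3% in Zfp982, 29.2% in Zfp985 and 8.12% in Zfp981. The sources used here do not say how reads that fit several of these copies were placed, and its part in the peaks below was not tested. The receptor's binding element AGGTCA, searched on both strands, was present in 2 of the 9 entries, entry 2 of Zfp600 and that of Zfp993, against 16.3% of all promoters. Pairs of AGGTCA in the same direction and spaced by 5 bases were present in none of the 9 entries and in 3 of the 32851 promoters.

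The lists differ in length, which bears on every count. The mutant libraries held 54112, 410562 and 513290 peaks in replicates 1, 2 and 3, and the control libraries 86446, 11869 and 30273. Counts are therefore given over all peaks and over lists of equal length, the strongest 11869 peaks of each library by total signal. Heights are in steps, the smallest unit of max signal in a library, which was 0.147, 0.450 and 1.63 in mutant replicates 1, 2 and 3 and 0.0500, 0.168 and 0.333 in control replicates 1, 2 and 3. Since the step differs between libraries, heights are compared with other peaks of the same library.

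Of the 81 windows laid over chromosome 4, the zinc finger window held the most strong peaks in the mutant libraries. In lists of equal length it held 52, 69 and 45 peaks in mutant replicates 1, 2 and 3, set against 18, 4 and 6 in control replicates 1, 2 and 3. Same-width windows were laid edge to edge over the rest of the chromosome, 80 in number, and chromosome ends too short for a whole window were left out. These had a median of 8, 8 and 9 peaks in the mutant libraries and 9, 8 and 8 in the control libraries. The zinc finger window ranked first among the 81 windows in each mutant library, where the next fullest had 20, 23 and 28 peaks. It ranked 5th, 70th and 58th in control replicates 1, 2 and 3, so control replicate 1 also had 2 times the median number there. As a share of chromosome 4 peaks this was 7.21% ± 1.54 in mutant and 1.27% ± 0.889 in control libraries (SD, n = 3 each). It ranged from 5.77% to 8.83% in mutant and from 0.612% to 2.28% in control libraries. How often such ranges lie apart in the other windows was not counted. The window was chosen on this contrast, so nothing is read from the ranks or the ranges.

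All peaks together gave another picture. The window held 90, 217 and 177 peaks in mutant replicates 1, 2 and 3, set against 33, 4 and 13 in control replicates 1, 2 and 3. Relative to the median other window, these were 2.25, 0.702 and 0.448 times as many in the mutant libraries and 0.504, 0.5 and 0.634 times as many in the control libraries. The window ranked 1st, 71st and 78th of 81 in mutant replicates 1, 2 and 3, and 79th, 70th and 74th in control replicates 1, 2 and 3. In mutant replicates 2 and 3 the window thus had many strong peaks and fewer peaks in all than most of the chromosome. The share of chromosome 4 peaks was 1.41% ± 1.18 in mutant and 0.667% ± 0.0961 in control libraries (SD, n = 3 each), and the groups overlapped. The difference of 0.745 percentage points rested on mutant replicate 1, without which it was 0.0716.

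**Figure D1:**
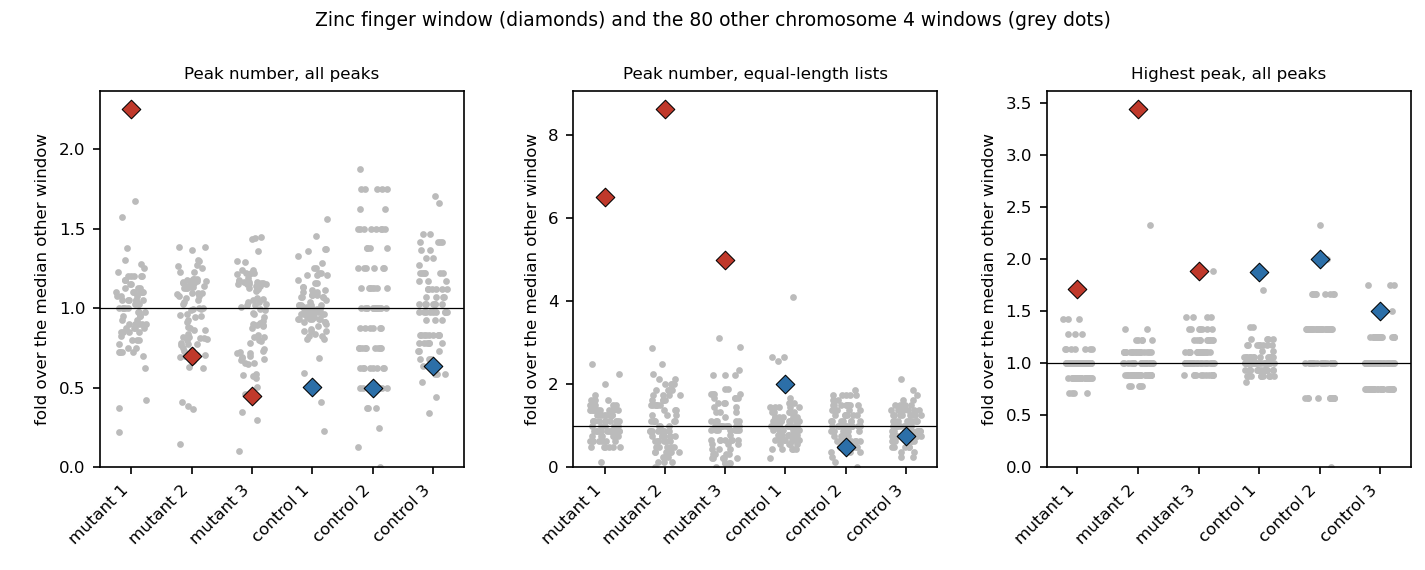
Peaks in the zinc finger window (diamonds, red for mutant and blue for control libraries) and in the 80 other 1.9 Mb windows of chromosome 4 (grey dots), each divided by the library's median other window. The panels give peak number over all peaks, peak number in lists of equal length and the height of the highest peak; only in lists of equal length do the 3 mutant diamonds, at 6.5, 8.625 and 5, all stand above every grey dot of their library.

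Tall peaks for the chromosome were found in the window in both genotypes. The highest peak of the window was 12, 31 and 17 steps in mutant replicates 1, 2 and 3, set against 32, 6 and 6 steps in control replicates 1, 2 and 3. In the 80 other windows the highest was 10, 21 and 17 steps in the mutant and 29, 7 and 7 steps in the control libraries. The 21 steps of mutant replicate 2 and the 29 of control replicate 1 lay in the adjoining window just before it, those of the other libraries farther away. The zinc finger window thus held the tallest peak of the 81 windows in mutant replicates 1 and 2 and in control replicate 1, and tied for it in mutant replicate 3. Over whole genomes 25, 17 and 32 peaks were taller in the mutant libraries and 16, 13 and 20 in the control libraries, so these are not the tallest of the libraries. The median height in the window was 5 steps in every mutant library, against 4 elsewhere on the chromosome, and 16, 3 and 2 steps in control replicates 1, 2 and 3, against 10, 2 and 2 elsewhere.

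Peaks in the window were somewhat wider than elsewhere on chromosome 4 in the mutant libraries. The median width was 814, 916 and 820 bp in mutant replicates 1, 2 and 3, against 676, 738 and 740 bp elsewhere. In control replicates 1, 2 and 3 it was 2109, 413 and 252 bp, against 2338, 310.5 and 255 bp elsewhere. The widest peak measured 1840, 8999 and 6818 bp in the mutant and 9900, 789 and 667 bp in the control libraries. Peaks covered 78.3, 294 and 201 kb of the window in the mutant libraries and 104, 1.78 and 4.21 kb in the control libraries, and control replicate 1 lay inside the mutant range.

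**Figure D2:**
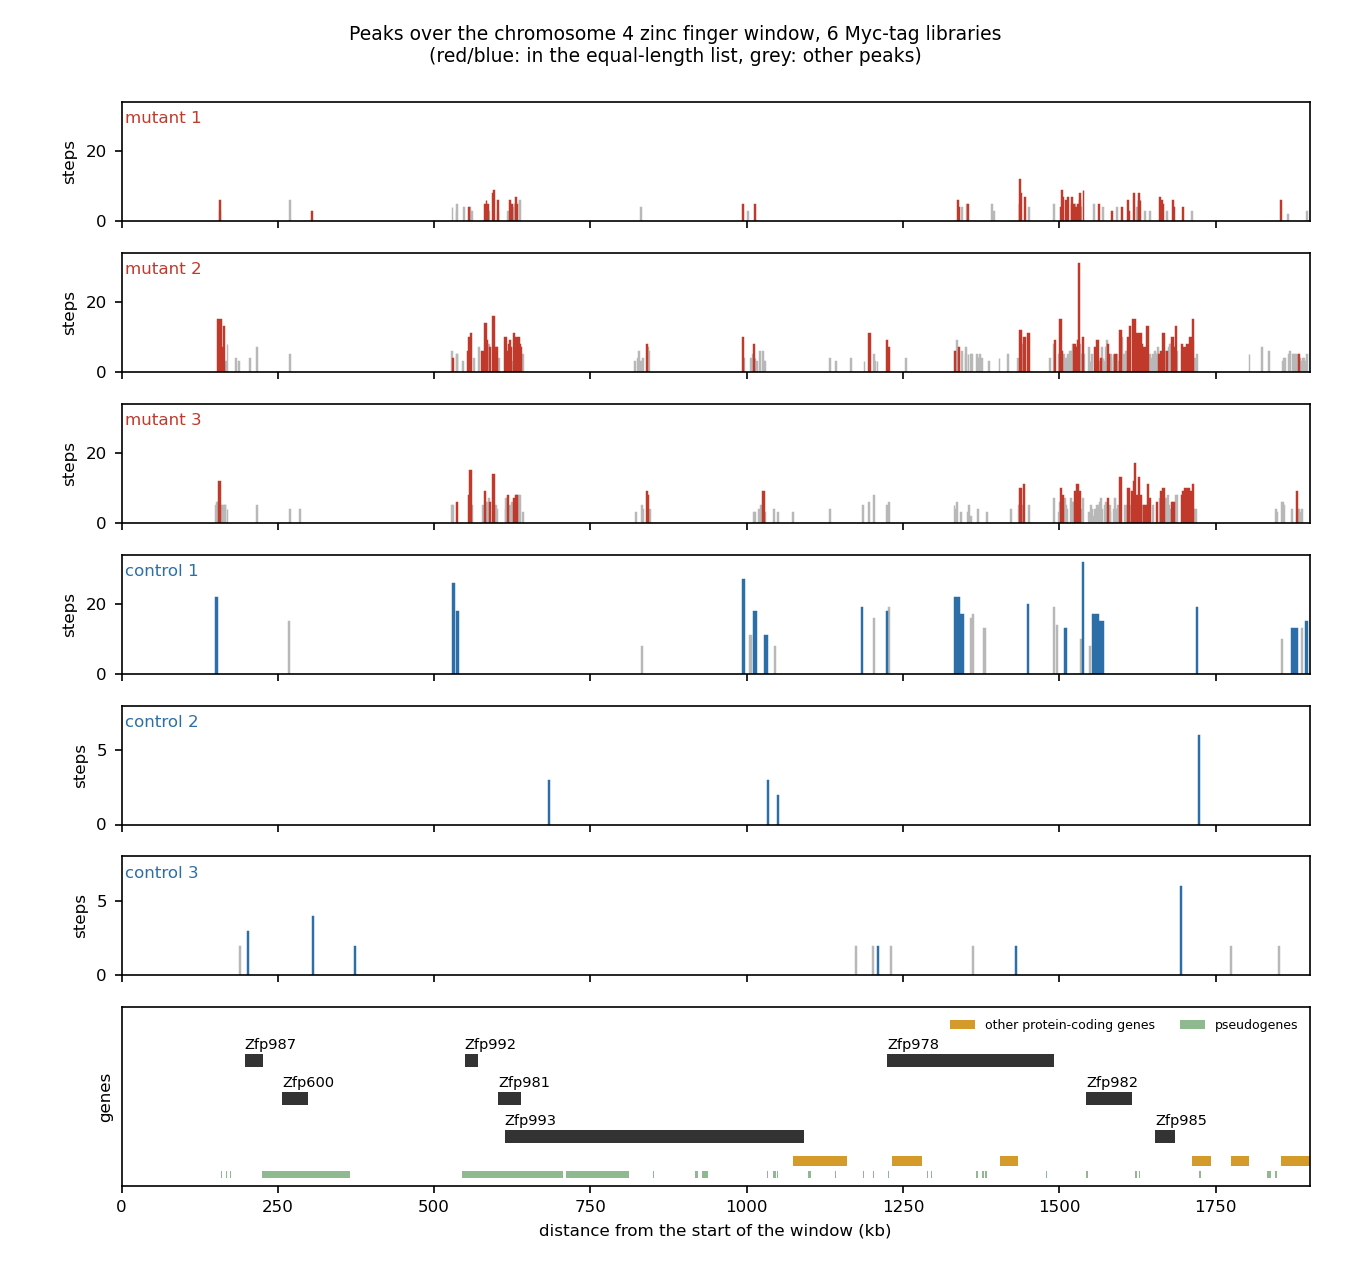
Peaks of the 6 libraries along the zinc finger window, mutant libraries above control libraries, with height in steps (axis to 34 steps, or to 8 in control replicates 2 and 3) against the distance from the window start in kb; red and blue peaks are in the lists of equal length, grey ones only in the full lists, and narrow peaks are drawn at a minimum width. Below lie the 8 members (black), other protein-coding genes (ochre) and pseudogenes (green). Mutant peaks crowd around Zfp992 and Zfp981 and from the end of Zfp978 to beyond Zfp985, and the peaks of control replicate 1 are fewer.

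Gene by gene, the members fell into those with peaks in the mutant libraries alone, those with peaks in both genotypes and those with few peaks at all. A gene was counted with 5 kb on both sides. In the equal-length lists 3 of the 8 members, Zfp992, Zfp981 and Zfp985, had a peak in every mutant and no control library, and the same 3 did so with all peaks. Of all protein-coding genes 0.439% (96 of 21887) did so in the equal-length lists and 5.41% with all peaks. The members were chosen for this pattern, so nothing is read from the count. Among the 359 other genes named Zfp with a number, 4 did so in the equal-length lists, or 1.11%: Zfp536, Zfp277, Zfp184 and Zfp608, with peaks of 4 to 8 steps. With all peaks 20 of the 359 did so, or 5.57%.

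Zfp981 (chr4:146502000-146539395) had 13, 15 and 16 peaks in mutant replicates 1, 2 and 3, the highest 7, 11 and 8 steps, and none in any control library. Its widest peaks measured 1007, 6706 and 2272 bp in mutant replicates 1, 2 and 3. The gene span alone had 32.1, 32.1 and 34.8 peaks per 100 kb in mutant replicates 1, 2 and 3, so the 3 mutant libraries were close to each other here although their lists differ in length. Zfp985 (chr4:147553277-147585201) had 7, 24 and 19 peaks in mutant replicates 1, 2 and 3, the highest 7, 13 and 10 steps, and none in any control library. With 21.9, 62.6 and 53.2 peaks per 100 kb of its span alone it was the most densely covered member in mutant replicates 2 and 3, and Zfp981 in mutant replicate 1. Zfp992 (chr4:146449030-146469440), the shortest of the 3, had 4, 6 and 3 peaks of at most 4, 11 and 15 steps in mutant replicates 1, 2 and 3, and none in any control library. All 3 genes thus had peaks in each mutant library and were empty in each control list, the pattern for which the members were chosen. In the full lists of control replicates 1, 2 and 3, 69.7%, 16.6% and 32.2% of all protein-coding genes had a peak. Empty genes were thus many in each control list, and most genes were empty in control replicates 2 and 3.

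Zfp982 (chr4:147443114-147516064) had 9, 33 and 29 peaks in mutant replicates 1, 2 and 3, the highest 8, 15 and 17 steps, against 3 peaks of at most 17 steps in control replicate 1 and none in control replicates 2 and 3. The 8 and 17 steps of mutant replicates 1 and 3 lay in the 5 kb past its end. Over its span alone the highest were 6, 15 and 13 steps in mutant replicates 1, 2 and 3. The control peaks lay in the first part of the gene, since control replicate 1 had no peak after position 147468963 of it. Zfp978 (chr4:147124882-147392027), a long gene that spans Zfp991 and Zfp988, had 13, 30 and 20 peaks in mutant replicates 1, 2 and 3, the highest 12, 12 and 11 steps. In control replicates 1, 2 and 3 it had 10, 0 and 3 peaks, the highest 22, 0 and 2 steps. Both genes thus had peaks in every mutant library and in control replicate 1.

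Zfp993 (chr4:146512849-146991471) is annotated over 478623 bp and shares its first part with Zfp981. It had 15, 32 and 29 peaks in mutant replicates 1, 2 and 3, the highest 7, 11 and 9 steps, and 6, 3 and 0 peaks in control replicates 1, 2 and 3, the highest 27, 3 and 0 steps. Of the mutant peaks 11, 12 and 14 also touched Zfp981 with its 5 kb, and none of the control peaks did. The remaining 4, 20 and 15 mutant peaks were at most 5, 10 and 9 steps high. Most of what mutant replicate 1 had over this gene therefore belonged to the stretch shared with Zfp981.

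Zfp987 (chr4:146097312-146126624) and Zfp600 (chr4:146156827-146198756), the first pair of the window, carried little. Zfp987 had 0, 2 and 1 peaks in mutant replicates 1, 2 and 3, of 7 steps in replicate 2 and 5 steps in replicate 3, and 1 peak of 3 steps in control replicate 3 alone. Zfp600 had 2, 1 and 2 peaks of at most 6, 5 and 4 steps in mutant replicates 1, 2 and 3, and 1 peak of 15 steps in control replicate 1. In the equal-length lists only the control replicate 3 peak was left for Zfp987, and for Zfp600 only a peak of 3 steps in mutant replicate 1. Each gene thus had peaks in both genotypes, and the 30 kb between them held no peak in any library.

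**Figure D3:**
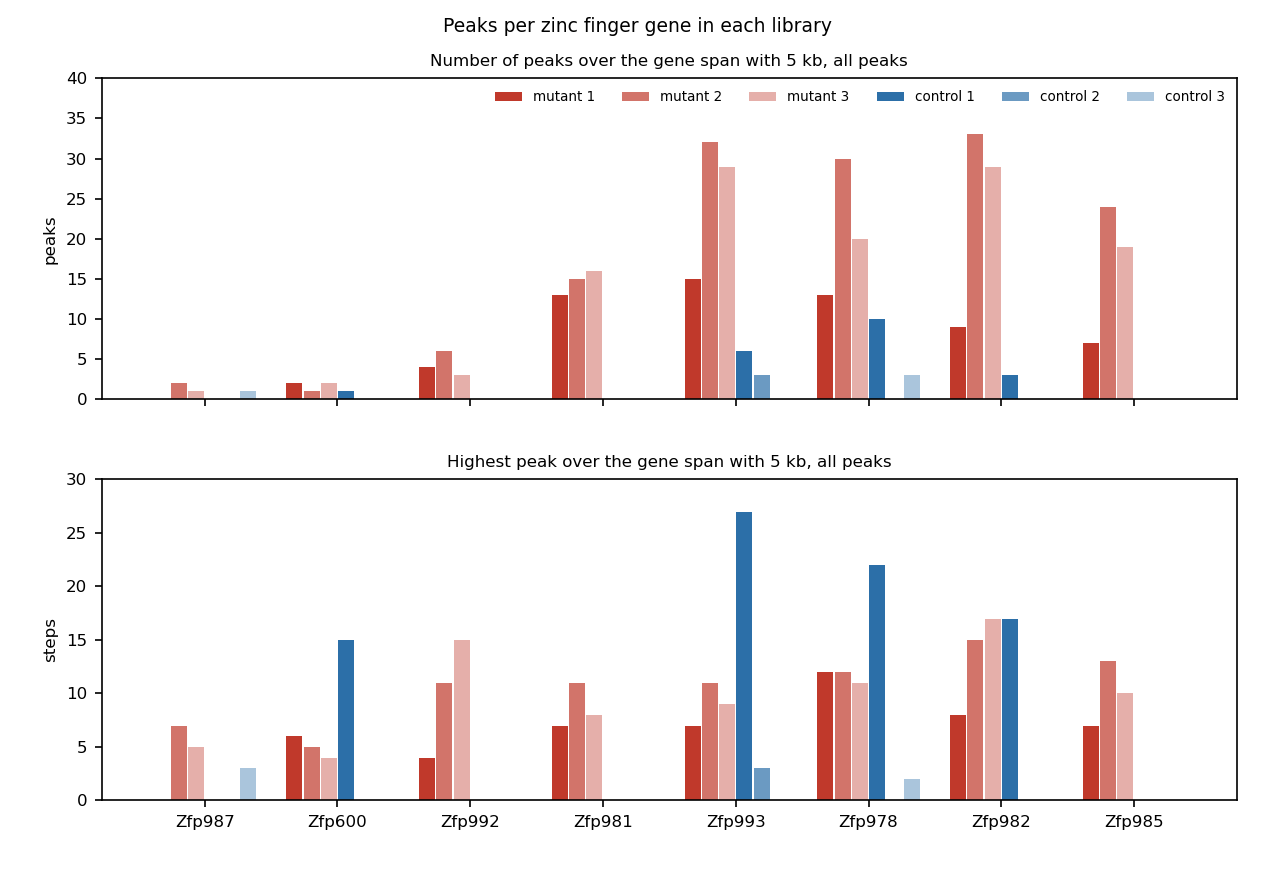
Number of peaks (upper panel) and height of the highest peak in steps (lower panel) over each member with 5 kb on both sides, all peaks, in mutant libraries (red, left of each group) and control libraries (blue, right). Zfp992, Zfp981 and Zfp985 have red bars only, while control replicate 1 has bars at Zfp600, Zfp993, Zfp978 and Zfp982; a step is a different amount of signal in each library, so bar heights in the lower panel are not compared between libraries.

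Peaks on the annotated starts were found in mutant replicates 2 and 3 alone. Over all peaks these 2 libraries had 15.5% and 10.6% of the window covered. Of the 9 promoter entries, those of Zfp981 and Zfp993 held a peak in mutant replicates 2 and 3, of 10 and 4 steps at Zfp981 and 10 and 7 steps at Zfp993. The 10 steps of mutant replicate 2 are those of 1 peak, at chr4:146512325-146514816, which touches both entries. Entries 2 and 3 of Zfp982 held 1 each, of 5 steps in mutant replicate 3 and of 3 steps in mutant replicate 2, and that of Zfp985 held 1 of 5 steps in mutant replicate 2. Mutant replicate 1 and the 3 control libraries had no peak on any of the 9, and the Zfp987 and Zfp600 entries had none in any library. Of the 5 alike promoters shown above, those of Zfp981, Zfp982 and Zfp985 thus held a peak in mutant replicate 2 or 3, and those of Zfp987 and Zfp600 held none. How reads were placed among such copies is not known, and its part here was not tested.

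Many peaks lay outside the genes. On the spans of members were 48 of 90, 121 of 217 and 98 of 177 peaks in mutant replicates 1, 2 and 3, or 53.3%, 55.8% and 55.4%, against 54.5%, 75% and 30.8% in control replicates 1, 2 and 3, where the last 2 shares stand for 3 of 4 and 4 of 13 peaks. The tallest mutant peaks included sites outside the members. The 31 steps of mutant replicate 2 were reached at chr4:147429915-147430768, between Zfp978 and Zfp982, and the 17 steps of mutant replicate 3 at chr4:147518599-147521267, between Zfp982 and Zfp985. The 12 steps of mutant replicate 1 were reached at chr4:147334772-147335683, inside Zfp978. The tallest of control replicate 1, 32 steps, lay at chr4:147435869-147437995, in the same stretch as that of mutant replicate 2 but not overlapping it.

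The stretches between neighbouring members ranged from empty to dense. From Zfp978 to Zfp982, 51.1 kb, there were 16, 23 and 19 peaks in mutant replicates 1, 2 and 3, set against 4, 0 and 0 in control replicates 1, 2 and 3. From Zfp982 to Zfp985, 37.2 kb, there were 7, 12 and 14 mutant peaks of at most 8, 15 and 17 steps, and no control peak. From Zfp992 to Zfp981, 32.6 kb, there were 8, 12 and 9 mutant peaks of at most 9, 16 and 14 steps, and again no control peak. These 3 short stretches held more peaks per length than most of the genes. The long ones, by contrast, were sparse in both genotypes: from Zfp600 to Zfp992, 250.3 kb, there were 5, 5 and 3 mutant and 2, 0 and 2 control peaks, and from Zfp993 to Zfp978, 133 kb, 0, 9 and 5 mutant and 3, 0 and 3 control peaks. At the edges of the window, the stretch before Zfp987 had 2, 8 and 11 mutant and 1, 0 and 1 control peaks, and that after Zfp985 had 5, 32 and 20 mutant and 5, 1 and 3 control peaks.

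Peaks of all libraries that overlapped or touched were joined into regions, and in the equal-length lists the window had 87 of these. Of them 18 had a peak in every mutant and no control library and none had the reverse, where 0.118% of all 67201 regions, 79 in number, had the mutant pattern. The 18 became 3 once the highest 1% of peaks by max signal was left out of each library, and 29 with all peaks. The rule used this contrast, so the share is given as background only. Elsewhere on chromosome 4 there were 3 more, making 21 on the chromosome. The 18 lay in 2 groups, 5 of them at chr4:146053215-146535487, covering 21.5 kb, and 13 at chr4:147334681-147611403, covering 77.1 kb. A member was touched by 10 of the 18, 6 lay between members, 1 lay before the first member and 1 after the last. Their highest peaks were 4 to 12 steps in mutant replicate 1, 6 to 31 in mutant replicate 2 and 6 to 17 in mutant replicate 3, with medians of 6, 11 and 10 steps. None had a control peak in the full lists either.

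The widest of the 18 was 17229 bp, at chr4:147594175-147611403 after Zfp985, with 4, 10 and 10 steps in mutant replicates 1, 2 and 3. The first region, at chr4:146053215-146058506 before Zfp987, had 6, 15 and 12 steps. Another, at chr4:146492004-146496499 between Zfp992 and Zfp981, had 9, 16 and 14 steps. At chr4:147514591-147521267, over the end of Zfp982, there were 8, 15 and 17 steps. Of these 4 regions, only the one over the end of Zfp982 touches a member.

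With all peaks, the pattern in the window was close to that of the rest of the chromosome. Of 42 regions with a peak in all 3 mutant libraries, 29 had no control peak, or 69.0%, against 358 of 550, or 65.1%, elsewhere on chromosome 4. Control replicate 1 had a peak in 13 of the 42, or 31.0%, against 179 of 550, or 32.5%, elsewhere. Control replicates 2 and 3 had none in the 42, and 8 and 13 in the 550. Of the 33 window peaks of control replicate 1, 29 overlapped a peak of at least 1 mutant library, 14, 26 and 24 of them one of mutant replicates 1, 2 and 3, and 4 overlapped none.

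Mutant peaks were also counted where control replicate 1, the longest control list, had none over a long distance. Chromosome 4 had 147 such stretches of at least 100 kb, 8 of them inside the window. In the one at chr4:147468963-147618122, over the end of Zfp982 and all of Zfp985, mutant replicates 1, 2 and 3 had 21, 62 and 55 peaks, or 14.1, 41.6 and 36.9 per 100 kb, and control replicates 2 and 3 had 0 and 1. The other 139 stretches reached at most 6.95, 24.9 and 33.8 mutant peaks per 100 kb, with medians of 1.56, 14.8 and 18.0. This stretch was denser than each of the 139 in all 3 mutant libraries. The window was chosen for mutant peaks where controls have none, so nothing is read from that rank. In the one at chr4:146437943-146730664, over Zfp992 and Zfp981, there were 24, 33 and 28 mutant peaks, or 8.20, 11.3 and 9.57 per 100 kb, above each of the 139 in mutant replicate 1 and below the median in mutant replicates 2 and 3. The other 6 stretches inside the window had at most 1.75, 8.75 and 8.75 mutant peaks per 100 kb.

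**Figure D4:**
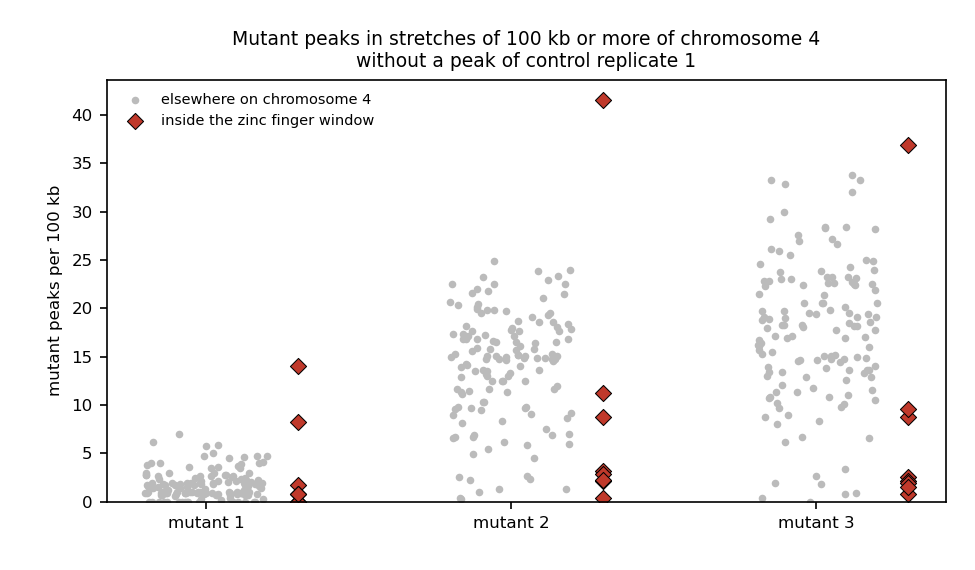
Mutant peaks per 100 kb in the stretches of chromosome 4 of at least 100 kb without a peak of control replicate 1, inside the zinc finger window (8 red diamonds per library) and elsewhere (139 grey dots). The highest diamond in each library, at 14.1, 41.6 and 36.9, is the stretch over Zfp982 and Zfp985, and most other diamonds lie low in mutant replicates 2 and 3.

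Empty stretches were common to both genotypes. No library had a peak in 4 stretches of at least 100 kb, which make up 589 kb or 31.0% of the window, the longest at chr4:146272578-146427213. Mutant replicate 1 in its turn had no peak at chr4:146912296-147235826, from the end of Zfp993 into Zfp978, where mutant replicates 2 and 3 had 20 and 17 peaks and control replicates 1, 2 and 3 had 8, 2 and 4.

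The window is rich in annotated pseudogenes and Zfp genes. RefSeq places 58 genes in it, of which 38 are pseudogenes, against a median of 5.5 and a highest count of 28 pseudogenes in the 80 other windows. Genes named Zfp with a number were 13, where no other window had more than 2. Whether repeated sequence, or a number of gene copies that differs between the embryos and mm10, has a part in the peaks was not tested, since no reads, no isotype signal and no genome sequence were used here.

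Other genes of the window shared the mutant peaks where they overlap the members' stretches. These genes were counted over their spans alone, without the 5 kb on both sides. A peak in every mutant library of the equal-length lists was found at 3 of them. Vmn2r-ps16, a vomeronasal receptor pseudogene that overlaps Zfp992, Zfp981 and Zfp993, had at most 9, 16 and 15 steps in mutant replicates 1, 2 and 3, and 0, 3 and 0 in control replicates 1, 2 and 3. The long noncoding RNA 1700095A21Rik had 7, 11 and 8 steps in the mutant libraries and the pseudogene Gm13141 had 6, 11 and 8, and neither had a control peak. Of the other protein-coding genes, taken over all peaks, Zfp979 had 0, 15 and 11 steps in mutant and 19, 6 and 0 in control replicates 1, 2 and 3, and Zfp984 had 3, 8 and 10 in mutant and 21, 0 and 0 in control replicates 1, 2 and 3. Zfp984 runs past the window end, and its highest peaks in mutant replicates 2 and 3 and control replicate 1 lay there. Rex2, with the promoter nearly identical to that of Zfp600, had 0, 4 and 4 steps in mutant replicates 1, 2 and 3 over all peaks, none of them in the equal-length lists, and none in controls.

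In the other zinc finger clusters no region of the equal-length lists had a peak in every mutant and no control library. Grouping Zfp genes with under 500 kb between neighbours gave 16 clusters of at least 5 genes, and the members belong to one of 16 genes from Zfp990 to Zfp933. All 18 mutant regions of clusters lay in it, and the other 15 clusters had 0, where 79 of all 67201 regions, or 0.118%, had this pattern. The clusters were not counted in this way with all peaks. In the equal-length lists its peaks per Mb were 5.39, 7.55 and 5.10 times the library mean in mutant replicates 1, 2 and 3 and 2.29, 0.392 and 0.980 times in control replicates 1, 2 and 3. The highest values among the other 15 were 3.40, 6.17 and 3.31 in the mutant and 5.14, 1.85 and 1.75 in the control libraries. In height it led as well, with 12, 31 and 17 steps in the mutant and 32, 6 and 6 in the control libraries, against at most 10, 14 and 11 and at most 20, 4 and 4 in the others. The members were chosen for peaks in every mutant and no control library, so nothing is read from the lead of their cluster.

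The cluster nearest in gene number, the 15 genes from Zfp84 to Zfp146 on chromosome 7, had 1 peak in each mutant library of the equal-length lists, against 7, 1 and 1 in control replicates 1, 2 and 3. The cluster with the most peaks per Mb relative to its libraries over all peaks, from Zfp871 to Zfp414 on chromosome 17, had 6, 7 and 1 in mutant and 7, 7 and 3 in control replicates 1, 2 and 3. Over all peaks the members' own cluster had 2.22, 0.777 and 0.515 times the library mean in mutant and 0.616, 0.392 and 0.807 times in control replicates 1, 2 and 3.

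Genes outside the window were ranked by how much their highest peaks were like the mean of the members, by the distance between log2 heights centred on each library. Among the nearest was Pik3ca, a catalytic subunit of phosphoinositide kinase, at a distance of 1.05, with 5, 6 and 9 steps in mutant replicates 1, 2 and 3 and 6, 0 and 0 in control replicates 1, 2 and 3. Trim6, a ubiquitin ligase, Zfp422 and the olfactory receptor gene Olfr550 followed at 1.10. The median distance of all 21873 genes ranked was 3.08, and the members themselves lay 2.29 to 3.86 from their own mean, Zfp987 farthest.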

How the data were processed

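The 6 deposited peak lists of the Myc-tag libraries were used, grouped by the titles of the samples. Per the submitters' processing notes the authors called peaks with SEACR on mm10. There is 1 list per library. The aligner, settings, filters, number of reads and treatment of reads that fit several places were not given in the sources used here, so the depth is unknown. The deposited columns, total signal and max signal of a peak, are the authors' values on an unstated scale. Max signals below 100 steps were whole multiples of 1 step within 0.05.

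The 8 members, the window and all lists were chosen with earlier results of these data known, so no test was made, and values are described per library. Peaks counted from 1 bp of overlap. Equal-length lists kept the strongest 11869 peaks by total signal. Genes and promoters came from RefSeq tables of GRCm38.p6. Promoters were aligned end to end with Biopython 1.88, and identity is identical positions over alignment columns. Entries at least 70% identical are called alike. Tables were made with pandas 2.3.3 and numpy 2.4.6 in Python 3.11.15, after a check of the counting on simulated lists. Alternatives were other lists, thresholds, overlaps and window bounds, and leaving out each library. Named genes were the members, window genes with an equal-length peak in every mutant library, the 5 genes nearest in pattern, of which 1 is not reported here, and 2 other zinc finger clusters. The remaining protein-coding genes of the window that are named, the 4 other Zfp genes and the single regions were picked after their values were seen.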

Additional observations from a re-analysis of the deposited data

How the results depend on the processing

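Of 48 alternatives, 44 moved the value by less than the spread between replicates or, for counts, little. None changed the direction, which the counts could not do since they cannot fall below 0. For the window's share over all peaks the mutant SD of 1.18 exceeds the difference of 0.745, so even 0.0716 is among the 44. Likewise 27 regions in place of 18 were taken as little. The mutant minus control difference in the window's share of chromosome 4 peaks was 0.745 percentage points with all peaks and 5.94 in lists of equal length. It ranged from 0.0716 without mutant replicate 1 to 1.16 without mutant replicate 3, and from 5.13 to 6.66 in equal-length lists without single libraries, an alternative added after seeing the data. The log2 difference in density over the other windows was 0.716 with all peaks, 2.85 in lists of equal length, and 0.0480 to 1.21 without single libraries, the lowest without mutant replicate 1. The 18 regions in every mutant and no control library were 29 with all peaks and 3 once the highest 1% of each library by max signal was left out, and 18 to 27 without single libraries. That last step takes more peaks from longer lists. The 3 members called in every mutant and no control library were 2 to 4 under the alternatives, with 4 without control replicate 1. No paired analysis was possible because the results are descriptions that come from no test, the genes having been chosen on this contrast. With 11869 peaks in the shortest list, absence from it says little about binding.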
